A study of Homo sapiens with 9 samples.

Results

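Ewing sarcoma cells that had spread to bone marrow were compared with cells of the primary tumour in the same mouse model. The comparison used 5 of the 9 libraries of the series, namely the 4 bone marrow metastasis libraries and the 1 primary tumour library, and took every gene in the count table except vector reporter and selection rows. The table held 34922 such genes, of which 17073 passed the filter on low counts. The cells in both groups were TC71, a human Ewing sarcoma line that carries the EWSR1-FLI1 fusion. Each NSG mouse, a strain that lacks T, B and NK cells, received 100 cells mixed with Matrigel in the flank, beneath the skin, according to the series' design text. Flow cytometry was used to recover the cancer cells from each organ at a tumour diameter of 1.5 cm, and the gate is not described. No treatment is named for either group. The labels give neither the mouse behind each library nor the animals' age, so it is unknown whether any bone marrow library came from the mouse that gave the primary tumour. The primary tumour has 1 library and therefore no replicate check. Ranges reported here are those of the bone marrow libraries, whose spread may be technical. Standard errors and p values come from fits of all 9 libraries, so they also rest on the spread between lung libraries.

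Ewing sarcoma is a tumour of bone and soft tissue in which the EWSR1-FLI1 fusion protein turns one set of genes on and holds another, including many mesenchymal and matrix genes, down. Bone marrow is, with lung and bone, one of its main sites of spread. Among the programmes followed here, early response genes such as the FOS, EGR and KLF transcription factors are switched on within minutes by growth factors or stress, feedback inhibitors then damp the growth factor signal, and the unfolded protein response raises the chaperones of the endoplasmic reticulum (ER) when protein folding is under strain.

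The primary library held 12352301 estimated counts and the bone marrow libraries 14158113 to 17910622. Reads assigned to human made up 78.09% in the primary library and 77.59 to 79.1% in bone marrow, and reads assigned to mouse 7.45% and 7.35 to 7.75%. Mitochondrial ribosomal RNA took 0.057% of reads in the primary library, the lowest of all 9, and 0.0956 to 0.218% in bone marrow. Defining Ewing markers were present in all 5 libraries: none of 12 had a total of 0. CD99, the surface protein used to diagnose the tumour, was at 606 CPM (counts scaled to a common library size, with TMM factors) in the primary library and at 544, 329, 300 and 432 CPM in bone marrow replicates 1 to 4. The primary library was about as like each bone marrow library as these were like one another, with correlations across genes of 0.857 to 0.883 against 0.854 to 0.885. Genes are not independent replicates, so these values describe the libraries only.

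The sites were compared by range and by model. A gene was counted as higher or lower in the primary tumour when the primary library lay outside all 4 bone marrow libraries and at least 2-fold from the nearest one on the CPM + 1 scale, which is a description and not a test. Of 17073 genes, 573 (3.36%) were higher by this rule and 311 (1.82%) were lower. Among the 5939 genes with a mean log2(CPM + 1) of at least 4, the numbers were 78 (1.31%) and 121 (2.04%), so most of the genes counted as higher, 495 of 573, were of low abundance. With no fold asked, the primary library lay above all bone marrow libraries for 3267 genes (19.1%) and below all for 2642 (15.5%). The edgeR quasi-likelihood test, which assumes that the lone primary library varies as the others do, called 0 genes at an adjusted p below 0.05 and 650 at an unadjusted p below 0.05 (3.81%), 386 of them higher (2.26%) and 264 lower (1.55%) in the primary tumour. DESeq2 called 68 genes, 10 higher (0.0752%) and 58 lower (0.436%), and limma voom called 0. DESeq2 values for single genes are given below as descriptions, since they rest on 1 primary library and no gene was called by edgeR or limma voom. Positive log2 fold changes below mean higher in bone marrow. The median over all genes was 0.17, with 58% of genes positive, and each value includes that shift.

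Among genes with a mean log2(CPM + 1) of at least 4, ERRFI1 had the widest gap on the side of the primary tumour. It encodes MIG6, a feedback inhibitor that binds the EGF receptor and blocks its kinase (chromosome 1, 8004404 to 8026308, minus strand, hg38). The primary library held 594 CPM of ERRFI1 and bone marrow replicates 1 to 4 held 32.9, 33.6, 33.9 and 23.9 CPM. The bone marrow libraries lay within a narrow band and none came near the primary library. This amounted to -4.26 ± 0.53 (SE) on the log2 scale, at an edgeR unadjusted p of 2.11e-05 and an adjusted p of 0.360, against a DESeq2 adjusted p of 7.08e-06. MIDN, which encodes midnolin, a nuclear protein that carries early response proteins to the proteasome, was at 164 CPM in the primary library and at 35.4, 17.1, 17.0 and 27.6 CPM in bone marrow. Its log2 fold change of -2.75 ± 0.43 had a DESeq2 adjusted p of 0.000137.

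Others of the 12 genes with the widest gaps above bone marrow fell into a few kinds. GEM, a small GTP-binding protein induced by mitogens, was at 278 CPM in the primary library and 32.3, 75.0, 33.2 and 27.4 CPM in bone marrow. KLF10, a zinc finger factor induced early by TGF-beta, stood at 535 CPM against 183, 133, 144 and 93.9 CPM. RGS2, which shortens G protein signals, was at 146 CPM against 45.4, 31.4, 31.9 and 14.6 CPM. For each of these the highest bone marrow library stayed well below the primary library. Log2 fold changes (± SE) were -2.73 ± 0.78 for GEM, -1.95 ± 0.47 for KLF10 and -2.25 ± 1.40 for RGS2, the least certain. NEFH, the heavy neurofilament chain, was at 247 CPM against 34.9 to 65.0 CPM, and GPATCH4, a G-patch protein of the nucleolus, at 205 CPM against 31.2 to 49.4 CPM. The remaining genes with wide gaps were TPR, the filament protein of the nuclear pore basket, the chromatin remodelling subunit BPTF, the RNA granule protein PRRC2C, the kinesin anchor KTN1 and the histidine methyltransferase SETD3. TPR was at 338 CPM in the primary library and 33.6 to 92.5 CPM in bone marrow, and BPTF at 186 CPM and 29.1 to 56.0 CPM. DESeq2 gave adjusted p of 0.0119 for BPTF and 0.0349 for PRRC2C, and of 0.0772, 0.191 and 0.420 for TPR, KTN1 and SETD3.

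At the same minimum level, genes with the widest gaps below bone marrow were mostly of modest level. SLC30A6, a zinc transporter of the Golgi (chromosome 2, 32165841 to 32224379, plus strand, hg38), was at 0.844 CPM in the primary library, from 11 counts, and at 25.3, 52.0, 39.5 and 46.3 CPM in bone marrow. NPY1R, a receptor for neuropeptide Y that Ewing sarcomas carry, was at 4.76 CPM against 40.6, 88.9, 82.9 and 36.8 CPM (a log2 difference of 3.71 ± 0.87, DESeq2 adjusted p 0.000448). MRPL49, a protein of the large mitochondrial ribosomal subunit (chromosome 11, 65122183 to 65127371, plus strand), was at 57.5 CPM against 263, 329, 332 and 258 CPM. MRPL49 was the most abundant of the 12 and had the smallest edgeR p of the named genes on this side (log2 fold change 2.36 ± 0.41, unadjusted p 0.000251, DESeq2 adjusted p 1.35e-05). ATG4C, a protease that processes ATG8 proteins in autophagy, was named for its p value and stood at 22.1 CPM against 95.1, 114, 83.9 and 71.5 CPM. OAZ2, an antizyme that sends ornithine decarboxylase to the proteasome, was at 9.97 CPM against 44.4, 119, 84.0 and 65.1 CPM.

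The other genes on this side were a protein kinase, basal and regulatory factors and receptors. PDIK1L, a kinase, was at 2.22 CPM in the primary library and 23.4 to 83.8 CPM in bone marrow. GTF3C5, a subunit of the RNA polymerase III factor TFIIIC, was at 2.53 CPM against 22.4 to 45.2 CPM. NSUN5, which methylates ribosomal RNA, was at 2.92 CPM against 24.4 to 30.2 CPM. DESeq2 adjusted p of these 3 were 0.0391, 0.00121 and 0.000843. IL10RB, the shared chain of receptors for interleukin 10 and interferon lambda, was at 3.53 CPM against 17.98 to 32.3 CPM (DESeq2 adjusted p 0.000956). For TADA3, a subunit of histone acetyltransferase complexes, the zinc finger gene ZNF28, the orphan receptor GPR19 and the cancer-testis gene MAGEA2B, DESeq2 gave adjusted p of 0.0770, 0.294, 0.716 and 0.152. Several of these genes rested on few counts in the primary library, from 11 for SLC30A6 and MAGEA2B to 62 for NPY1R.

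**Figure D1:**
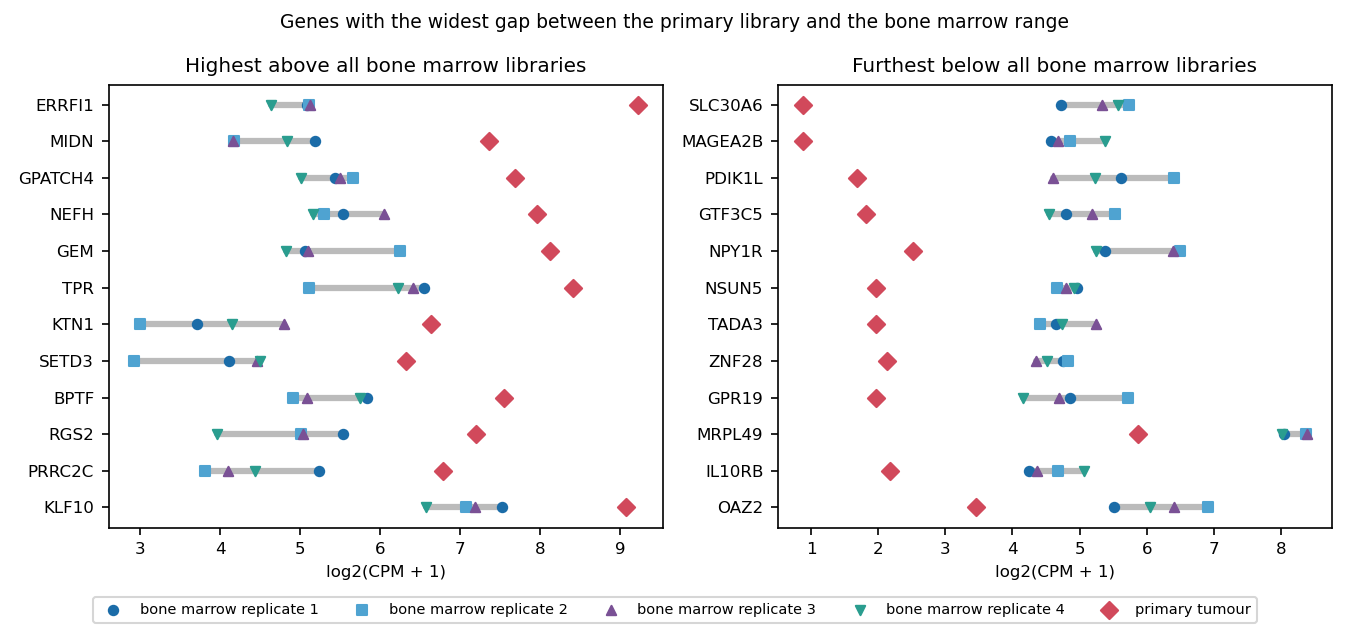
Levels of the 12 genes furthest above (left) and the 12 furthest below (right) the bone marrow range, as log2(CPM + 1) on the horizontal axis. The diamond is the primary library, the other symbols are the 4 bone marrow replicates and the grey bar spans them. ERRFI1 stands at 594 CPM in the primary library and at 23.9 to 33.9 CPM in bone marrow.

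Transcript length moved with the comparison. Over 14985 genes with a length in GENCODE 29, the Spearman correlation across genes between length and log2 fold change was -0.175, and -0.25 among 5859 genes at a mean log2(CPM + 1) of at least 4. When genes were split by length into 10 equal groups, in the shortest group the median log2 fold change was 0.38, and the primary library was above all bone marrow libraries for 11.3% of genes and below all for 20.3%. In the longest group the median was -0.14 and the shares were 30% and 10.6%. The 78 abundant genes counted as higher had a median length of 4509 bases, the 121 counted as lower 2492 and all abundant genes 3163. The libraries differed among themselves in the same measure. Long genes minus short genes came to -1.15 on the log2 scale in the primary library and to -1.99, -1.90, -1.43 and -1.39 in bone marrow replicates 1 to 4, so replicates 3 and 4 lay nearer to the primary library. When length and GC content were corrected for within each library, an alternative chosen after seeing the data, the correlation was -0.0158, and 533 genes were higher and 300 lower. Of the 884 genes outside the range by 2-fold, 721 were shared. The part that length plays in single genes was not tested, and for the main groups below the median with this correction is given.

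**Figure D2:**
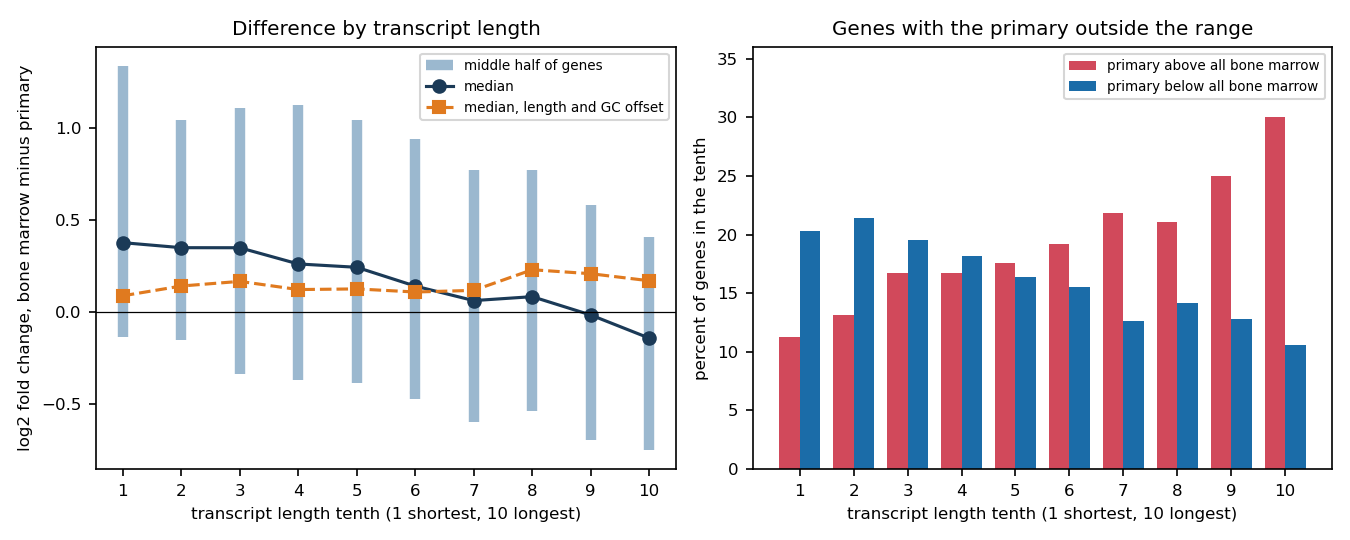
Comparison in 10 equal groups of genes by transcript length. Left, the median log2 fold change (bone marrow minus primary, circles) with the interquartile range as bars, and the median with the length and GC offset (squares). Right, the percent of genes in each group with the primary library above or below all 4 bone marrow libraries. The share above ran from 11.3% in the shortest group to 30% in the longest.

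Early response genes were mostly higher in the primary tumour. In all, 20 of 28 tested stood higher there (median log2 fold change -0.77, against 0.17 over all genes). The primary library lay above all bone marrow libraries for 15 and below all for 1, against 19.1% and 15.5% of all genes. By the 2-fold rule 9 were higher and 1 lower, against 3.36% and 1.82% of all genes, and the median with the length and GC offset was -0.79. GADD45A, a stress sensor that slows the cell cycle, was at 63.5 CPM in the primary library and at 9.25, 2.44, 3.54 and 7.37 CPM in bone marrow. KLF2, a Krüppel-like factor, was at 8.67 CPM against 1.55, 0.549, 0.417 and 0.717 CPM. MCL1, an anti-apoptotic BCL2 relative with a short-lived protein, was at 239 CPM against 73.0, 96.1, 84.8 and 55.9 CPM. None of these ranges reached the primary library. RHOB, a GTPase of endosomes and stress fibres, was at 173 CPM against 26.8 to 63.4 CPM, and the AP-1 subunit FOSL2 at 28.5 CPM against 3.48 to 9.52 CPM. FOSL1, a further AP-1 subunit, was at 27.3 CPM in the primary library, at 2.00 CPM in bone marrow replicate 1 and at 0 in replicates 2 to 4. EGR3 was at 37.5 CPM against 0.130 to 13.1 CPM, and IER5 at 23.1 CPM against 1.11 to 8.06 CPM.

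FOS itself went the other way. It was at 110 CPM in the primary library and at 556, 490, 254 and 449 CPM in bone marrow, a log2 difference of 1.99 ± 0.68, and it was no longer 2-fold outside the range with the length and GC offset. Bone marrow replicate 1 stood apart for this group: the mean log2(CPM + 1) over the 28 genes was 5.15 in the primary library and 4.64, 3.84, 3.71 and 3.69 in replicates 1 to 4. Without replicate 1 the median was -1.18, 13 members were higher by 2-fold and 1 lower. Of the 16670 genes tested in that setting, 966 were higher and 573 lower by the same rule. The lung libraries, from the other metastatic site, had means of 4.73 to 5.15, all above bone marrow. The highest, 5.146 in lung replicate 1, was level with the 5.152 of the primary library. Summed CPM gave another order. It was 2569 in the primary library, 2842, 1612, 1042 and 1318 in bone marrow replicates 1 to 4, and 3703, 2819, 2493 and 1962 in lung replicates 1 to 4.

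Feedback inhibitors of growth factor signalling were split. Of 19 tested, 12 were higher in the primary tumour, with a median log2 fold change of -0.54. Outside the bone marrow range, 9 lay above and 4 below, against 19.1% and 15.5% of all genes. Leaving out bone marrow replicate 2 brought the median to -0.20. ERRFI1 led the first group, and DUSP6, the phosphatase that inactivates ERK, was at 155 CPM against 36.3, 24.9, 55.9 and 8.93 CPM. DUSP1, a nuclear phosphatase for JNK and p38, was at 22.5 CPM against 84.8, 240, 62.3 and 73.9 CPM, and SOCS3, which shuts off JAK signalling, at 3.07 CPM against 24.6, 73.6, 7.65 and 19.8 CPM. Both of these were lower in the primary library than in any bone marrow library, although SOCS3 was less than 2-fold outside the range with the length and GC offset, with the filter of 5 CPM in 4 libraries and with a pseudocount of 5 CPM. DESeq2 adjusted p were 0.526 for DUSP6 and 0.161 for DUSP1.

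ER chaperones and folding genes had a higher level in the primary tumour as a group. In all, 18 of 26 tested stood higher there (median log2 fold change -0.57). The primary library was above all bone marrow libraries for 11 and below all for 2, and 3 were 2-fold higher (all genes: 19.1%, 15.5% and 3.36%). HSPA5, the main ER chaperone BiP (chromosome 9, 125234853 to 125241330, minus strand, hg38), was at 4659 CPM in the primary library and at 2294, 2153, 1824 and 2177 CPM in bone marrow. The difference of -1.14 ± 0.30 on the log2 scale had an edgeR unadjusted p of 0.00398 and a DESeq2 adjusted p of 0.278. It lay just inside the 2-fold rule, as did NASP at 137 CPM with a bone marrow maximum of 68.0 CPM, while SMC3, at 309 CPM with a bone marrow maximum of 154 CPM, lay just outside. HERPUD1, which helps to degrade misfolded ER proteins, was at 609 CPM against 168, 199, 186 and 284 CPM. CRELD2, a secreted folding factor, was at 46.6 CPM against 3.77, 17.2, 22.2 and 15.7 CPM. All bone marrow values of these 3 genes were below the primary value. HSP90B1, the ER form of HSP90, was at 834 CPM against 253 to 532 CPM, and DDIT3, the factor CHOP that is induced late in ER stress, at 725 CPM against 469, 187, 128 and 71.0 CPM. HSPA5 was less than 2-fold outside the range with the length and GC offset and with the filter of 5 CPM in 4 libraries, and CRELD2 with a pseudocount of 5 CPM. The median of the list was -0.38 with the offset. ATF4, the translation-controlled factor upstream of CHOP, was at 139 CPM against 42.7, 56.5, 36.8 and 20.1 CPM. The list of 21 tested ATF4 targets and amino acid supply genes includes ATF4 itself. That list had a median of -0.17, which was -0.09 without bone marrow replicate 2 and -0.0057 without replicate 3.

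Promoters of ER chaperones are known for the ER stress response element, and 3 of the 6 members that hold it are shown, 2 above all bone marrow libraries and 1 within their range. The element was searched on both strands as CCAAT, then any 9 bases, then CCACG, in the 250 bases before each RefSeq gene start (GRCh38.p14), where it overlaps no other motif searched. The sequences below run 5′ to 3′ along the gene's strand, with the element in capitals and 20 bases on each side. HSPA5 lies at chr9:125241371-125241429 (minus strand), CRELD2 at chr22:49918534-49918592 and CALR at chr19:12938364-12938422 (both plus strand), and in CRELD2 and CALR the element is on the other strand.
HSPA5: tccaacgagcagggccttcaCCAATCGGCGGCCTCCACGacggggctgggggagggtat
CRELD2: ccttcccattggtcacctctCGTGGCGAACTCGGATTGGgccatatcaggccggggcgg
CALR: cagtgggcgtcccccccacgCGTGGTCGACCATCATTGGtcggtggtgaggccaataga
CALR, the lectin chaperone calreticulin, was at 76.9 CPM in the primary library and 42.3 to 108 CPM in bone marrow, so it holds the element and did not lie outside the range. The element was found in 6 of 25 promoters of the group (24%) and in 0.153% of 11096 promoters of tested genes. It was found in 3 of the 11 members above all bone marrow libraries (27.3%) and in 3 of the 14 others (21.4%), so its presence did not separate them. The match describes these letters only.

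**Figure D3:**
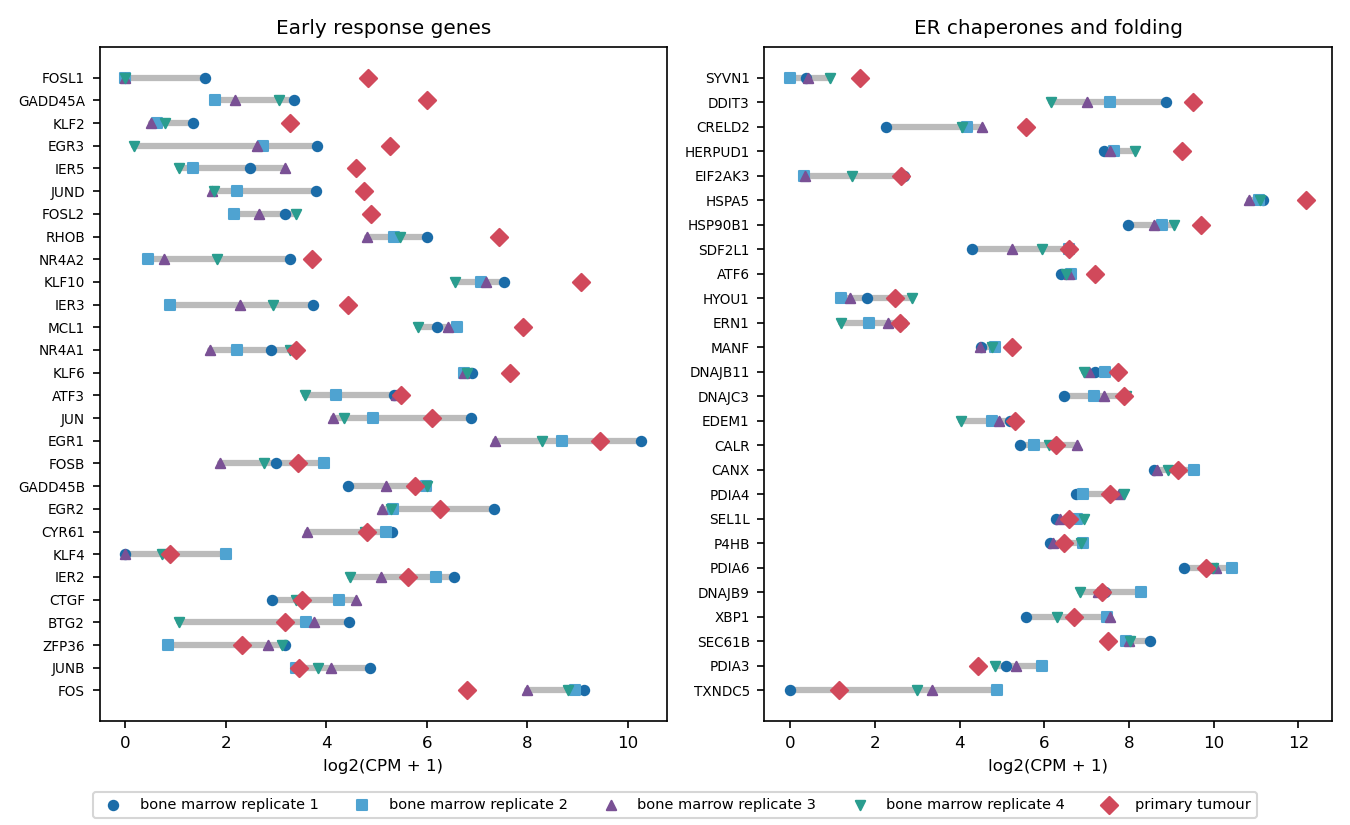
Levels of the 28 early response genes (left) and the 26 ER chaperone and folding genes (right) in each library, as log2(CPM + 1), ordered by fold change. The diamond is the primary library, the other symbols are the 4 bone marrow replicates and the grey bar spans them. The diamond lies to the right of the bar for 15 and 11 genes and to the left for 1 and 2.

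Genes known to be repressed by EWSR1-FLI1 were mostly higher in the primary tumour. There were 15 of 22 tested on that side (median log2 fold change -0.68). The primary library was above all bone marrow libraries for 11 and below all for 2, and 5 were 2-fold higher, against 19.1%, 15.5% and 3.36% of all genes. The median with the length and GC offset was -0.48. TGFBR2, the TGF-beta receptor that the fusion represses, was at 21.6 CPM in the primary library and at 0.518, 1.34, 0.209 and 0.717 CPM in bone marrow. SNAI2, the mesenchymal factor SLUG, was at 90.9 CPM against 12.3, 0.305, 7.92 and 25.9 CPM, and the matrix protein TNC at 21.3 CPM against 2.07, 6.65, 0.973 and 0.847 CPM. NT5E, the surface enzyme CD73, had 87 counts in the primary library (6.67 CPM) and 1 count over all 4 bone marrow libraries. DESeq2 adjusted p of these 4 were 0.111 to 0.678, and SNAI2 shows how far single bone marrow libraries differed. VIM, the intermediate filament vimentin, was at 306 CPM against 93.5 to 215 CPM. Only 11 of the 22 met a filter of 5 CPM in 4 libraries, which left TGFBR2 and NT5E out and gave a median of -1.13.

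Genes activated by the fusion did not mirror this. Of 38 tested, 22 were higher in the primary tumour, with a median log2 fold change of -0.22. Outside the bone marrow range, 12 lay above and 3 below, against 19.1% and 15.5% of all genes. PAPPA, a protease that frees insulin-like growth factors, was at 39.5 CPM in the primary library and at 6.73, 0.366, 0.556 and 6.45 CPM in bone marrow. CCND1, the G1 cyclin, was at 313 CPM against 174, 173, 158 and 231 CPM. NPY1R, described above, was lower. Both the activated and the repressed group thus had a median below that of all genes.

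For matrix and mesenchymal genes the median was -0.44 over 25 tested, and 16 stood higher in the primary tumour. Outside the bone marrow range, 11 lay above and 2 below, against 19.1% and 15.5% of all genes. The basement membrane protein NID2 had 47 counts in the primary library (3.61 CPM) and 1 count over all bone marrow libraries. COL5A1, a fibrillar collagen chain, was at 4.76 CPM against 0.794 to 1.26 CPM, and TWIST1, a mesenchymal transcription factor, at 147 CPM against 76.6, 74.9, 54.8 and 68.7 CPM. With the length and GC offset the median was -0.20, under which COL5A1 was less than 2-fold outside the range and TWIST1 just over it. NID2 and COL5A1 were less than 2-fold outside with a pseudocount of 5 CPM. Without bone marrow replicate 2 it was -0.66. The sum over 13 fibroblast markers was 315 CPM in the primary library, within the 115 to 391 CPM of bone marrow.

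Integrins and other adhesion receptors were close to the background, with 13 of 23 higher in the primary tumour and a median of -0.11. That median changed sign with the offset (0.10), with the filter of 5 CPM (0.11) and without bone marrow replicate 2 (0.03), so no direction is given. ITGB1, the common beta chain, was at 303 CPM against 159, 219, 125 and 215 CPM, and the collagen receptor chain ITGA1 at 3.84 CPM against 0 to 0.305 CPM, less than 2-fold outside the range with a pseudocount of 5 CPM. CD151, a tetraspanin that binds laminin receptors, was lower in the primary tumour, at 7.52 CPM against 25.1, 36.7, 44.7 and 24.8 CPM.

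Factors for bone and marrow homing had no common direction. Of 17 tested of 25, 6 were higher in the primary tumour, with a median of 0.39. It was 0.05 without bone marrow replicate 1 and 0.14 without replicate 3, and only 4 members met the filter of 5 CPM (median -0.02). TNFRSF11B, the decoy receptor osteoprotegerin, had 94 counts in the primary library (7.21 CPM) and 3 over all bone marrow libraries. TNFRSF11A, the receptor RANK on which osteoclasts depend, was at 7.13 CPM against 0.814, 1.34, 0.556 and 0.717 CPM. Both were higher in the primary tumour by the 2-fold rule, TNFRSF11A not so with a pseudocount of 5 CPM, and neither met the filter of 5 CPM in 4 libraries. CXCR4, the chemokine receptor for marrow homing, did not pass the filter, with 0 counts in the primary library and 8, 4, 0 and 1 in bone marrow, and no fold is given.

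A chosen list of 28 very long genes was higher in the primary tumour. It holds genes of chromatin, centrosome and cytoskeleton, and was drawn up with earlier results of these data known. Its median length was 11620 bases. All 28 were higher in the primary tumour, 24 lay above all bone marrow libraries and 0 below, and 10 were 2-fold higher. Of all genes, 19.1% lay above and 15.5% below, and 3.36% were 2-fold higher. At a mean log2(CPM + 1) of at least 4 these shares were 15.4%, 22.4% and 1.31%. The list's median log2 fold change was -1.35, and -1.05 with the length and GC offset, under which 17 lay above and 1 below. The mean log2(CPM + 1) was 5.83 in the primary library and 4.55, 3.99, 4.43 and 4.74 in bone marrow. ZC3H13, a subunit of the complex that methylates adenosines in RNA, was at 682 CPM against 264, 165, 159 and 278 CPM. Its gap fell just under 2-fold with the offset. CENPF, a kinetochore protein of dividing cells, was at 153 CPM against 43.7, 18.1, 22.9 and 54.2 CPM. These genes do not stand for long transcripts in general, since the longest of the 10 groups by length had a median of -0.14, with 30% above and 10.6% below all bone marrow libraries.

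Splicing factors, which are of ordinary length, showed a smaller difference in the same direction. Of 33 tested, 22 were higher in the primary tumour. Outside the bone marrow range, 17 lay above and 1 below, against 19.1% and 15.5% of all genes. The median was -0.46, or -0.34 with the offset and -0.31 without bone marrow replicate 1. HNRNPU, a nuclear scaffold and RNA binding protein, was at 405 CPM in the primary library and at 115, 189, 144 and 167 CPM in bone marrow. SRRM1, a splicing coactivator, was at 290 CPM against 118, 58.2, 85.1 and 51.9 CPM. SNRNP70, of the U1 particle, was at 5.75 CPM against 0 in 3 bone marrow libraries and 0.626 CPM in replicate 3, less than 2-fold outside with a pseudocount of 5 CPM. Nuclear pore genes were near the background, with 11 of 31 higher in the primary tumour and a median of 0.22, which was 0.03 without bone marrow replicate 2 and 0.09 without replicate 3. NUP153, of the pore basket, was at 91.7 CPM against 23.4 to 36.9 CPM, and its gap fell under 2-fold with the offset, as did that of HNRNPU.

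Nuclear genes for mitochondrial protein synthesis and respiration were mostly lower in the primary tumour, by small amounts. Of 78 mitochondrial ribosomal proteins tested, 66 were lower there (median log2 fold change 0.38). The primary library was below all bone marrow libraries for 34 and above all for 4. At a mean log2(CPM + 1) of at least 4, where most of these genes lie, 22.4% of all genes were below and 15.4% above. Only MRPL49 and MRPL38 were 2-fold lower, as were 1.82% of all genes and 2.04% of those at that level. MRPL38 was at 0.153 CPM in the primary library, from 2 counts, and at 17.2, 14.6, 9.45 and 7.24 CPM in bone marrow. MRPS17 was at 188 CPM against 353, 331, 295 and 326 CPM, and MRPS12 at 157 CPM against 228, 306, 259 and 268 CPM. The bone marrow values of these small subunit proteins lay close together and above the primary value, with DESeq2 adjusted p of 0.487 and 0.305.

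Respiratory complex I had 35 of 37 tested nuclear subunits lower in the primary tumour (median 0.32), with 12 below all bone marrow libraries and 0 above. Complexes II to V had 33 of 36 lower (median 0.43), with 16 below and 0 above. Of all genes at a mean log2(CPM + 1) of at least 4, 22.4% were below and 15.4% above. NDUFB2, a complex I subunit, was at 350 CPM in the primary library and at 653, 810, 788 and 825 CPM in bone marrow. SDHD, which anchors complex II in the membrane, was at 774 CPM against 1057, 1574, 1303 and 1294 CPM, and COX8A, of complex IV, at 268 CPM against 364, 454, 446 and 423 CPM. These genes are short, with median lengths of 1256 and 1296 bases. With the length and GC offset the medians were 0.16 and 0.26, against 0.15 over all genes, and 9 and 11 members were below and 1 and 2 above all bone marrow libraries. Without bone marrow replicate 1 the medians were 0.14 and 0.26, and 13 of 37 and 11 of 36 subunits were higher in the primary tumour. The list of mitochondrial ribosomal proteins had a median of 0.22 with the offset and 0.33 without replicate 1.

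Transcripts of the mitochondrial genome itself went the other way and varied widely. Of 13, 10 were higher in the primary tumour (median -0.74) and 7 lay above all bone marrow libraries. Of all genes at a mean log2(CPM + 1) of at least 4, 15.4% lay above. MT-ND4, a complex I subunit, was at 2688 CPM in the primary library and at 1627, 383, 582 and 1546 CPM in bone marrow. Mitochondrial genes made up 1.34% of counts in the primary library and 1.28%, 0.277%, 0.478% and 1.12% in bone marrow replicates 1 to 4. Replicates 2 and 3 were low and replicates 1 and 4 near the primary library, and leaving out replicate 2 or 3 brought the median to -0.51 and -0.53, against -1.13 and -1.05 without replicate 1 or 4.

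Cytosolic ribosomal proteins, which have many near-identical pseudogenes, depended on 1 bone marrow library. Of 78 tested, 66 were lower in the primary tumour, with a median of 0.26. There were 16 below and 2 above all bone marrow libraries. Of all genes at a mean log2(CPM + 1) of at least 4, 22.4% were below and 15.4% above. Without bone marrow replicate 1 the median was -0.01, and 40 of 78 were higher in the primary tumour. It was -0.02 with the length and GC offset. The direction of this family is therefore not given. For ribosome biogenesis, 17 of 27 genes stood higher in the primary tumour (median -0.17, and -0.38 with the offset).

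**Figure D4:**
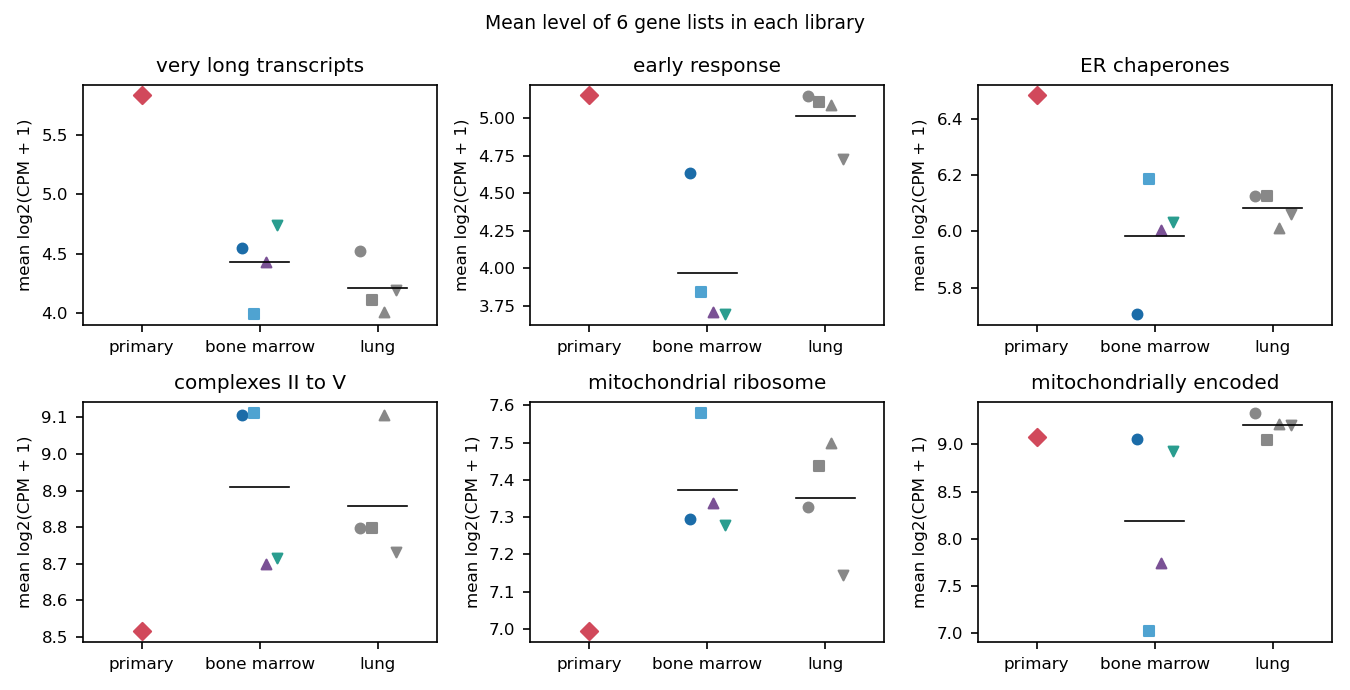
Mean log2(CPM + 1) of 6 gene lists in each library. Diamonds are the primary library, coloured symbols bone marrow replicates 1 to 4, grey symbols the 4 lung libraries, and lines the group means. The vertical axes differ and do not start at 0. The primary library lies above every bone marrow library for the lists in the upper row, and below every one for complexes II to V and the mitochondrial ribosome.

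Cell division genes differed in both directions. Of 30 mitotic genes, 18 were lower in the primary tumour (median 0.21), with 9 below and 3 above all bone marrow libraries. Of all genes at a mean log2(CPM + 1) of at least 4, 22.4% were below and 15.4% above. By the 2-fold rule 2 mitotic genes were higher, CENPF above among them, and 0 lower, against 3.36% and 1.82% of all genes. The list median was 0.07 without bone marrow replicate 2 and 0.00125 without replicate 3. BIRC5, the survivin of the chromosomal passenger complex, was at 590 CPM in the primary library and at 1095, 1378, 1073 and 919 CPM in bone marrow. PLK1, a kinase of mitotic entry, was at 24.5 CPM against 67.7, 45.4, 93.4 and 116 CPM. Their DESeq2 adjusted p were 0.267 and 0.387. DNA replication genes had a median of 0.23 over 32 (0.05 with the offset). For the BCL2 family and caspases it was 0.31 over 27, and 0.18 without bone marrow replicate 1. SIVA1, a pro-apoptotic adaptor, was at 95.1 CPM against 192, 256, 208 and 224 CPM. Its gap fell under 2-fold with median-ratio size factors, with library size alone, without a filter, with a pseudocount of 5 CPM and with the offset.

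The series' title concerns polyamines and ferroptosis, an iron-dependent form of cell death by lipid peroxidation. Core enzymes of polyamine synthesis did not separate the sites. ODC1, the first enzyme, was at 147 CPM in the primary library and at 83.4, 164, 128 and 164 CPM in bone marrow. SRM and SMS, which make spermidine and spermine, were at 21.0 CPM against 9.32 to 31.7 CPM and at 197 CPM against 164 to 231 CPM. The primary library fell within the bone marrow range for these 3. AMD1, which supplies the aminopropyl donor, was at 207 CPM against 139, 162, 105 and 178 CPM (log2 fold change -0.50 ± 0.65). Of 15 synthesis genes, 5 were higher and 8 lower in the primary tumour, and 2 had no count in these libraries. ARG2, the mitochondrial arginase that makes ornithine, was 2-fold lower, at 12.9 CPM against 59.7, 35.5, 45.7 and 30.8 CPM. On the side of turnover, the median over 13 genes was 0.52. SAT2 was at 5.60 CPM against 15.2 to 25.4 CPM, less than 2-fold outside with a pseudocount of 5 CPM, as was ARG2. SAT1, the acetyltransferase that starts polyamine breakdown, was at 41.9 CPM against 77.6, 72.4, 48.4 and 41.4 CPM.

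Of 24 genes that protect from ferroptosis, 3 were above and 6 below all bone marrow libraries. Of 19 that promote it, 2 were above and 6 below. The shares over all genes were 19.1% and 15.5%, and 15.4% and 22.4% at a mean log2(CPM + 1) of at least 4. GPX4, the enzyme that reduces lipid peroxides, was at 148 CPM in the primary library and at 168, 215, 207 and 202 CPM in bone marrow, a log2 difference of 0.42 ± 0.30 with an edgeR unadjusted p of 0.192. The primary value was the lowest of the 5, by 1.14-fold from the nearest on the CPM + 1 scale. SLC7A11, the cystine transporter, was at 19.1 CPM against 5.35 to 24.5 CPM and thus within the range, while its partner chain SLC3A2 was at 197 CPM against 70.3, 70.7, 144 and 106 CPM. GCLM, which helps to make glutathione, was at 66.0 CPM against 32.2, 24.5, 35.7 and 21.2 CPM. TFRC, the transferrin receptor that imports iron, was at 389 CPM against 436, 541, 864 and 514 CPM, and SLC40A1, the iron exporter ferroportin, at 14.3 CPM against 47.1, 72.3, 80.9 and 67.8 CPM. HMOX1, which frees iron from haem, was at 23.1 CPM against 0.148, 2.20, 0 and 0 CPM. LPCAT3, which loads polyunsaturated fatty acids into phospholipids, had 0 counts in the primary library and 14.1, 17.0, 8.48 and 13.4 CPM in bone marrow, at least 57.4-fold higher against a floor of 3 counts in the primary library. The protective list had 16 of 24 members lower in the primary tumour (median 0.36, and 0.16 without bone marrow replicate 3) and the promoting list 13 of 19 (median 0.49, and 0.31 without replicate 1). DESeq2 adjusted p for SLC40A1, HMOX1 and LPCAT3 were 0.961, 0.450 and 0.0997.

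Among the remaining programmes, HIF targets had 16 of 27 members higher in the primary tumour (median -0.22). SLC2A3, a glucose transporter, was at 80.8 CPM against 17.6, 31.9, 20.5 and 8.54 CPM, and KDM4B, a histone demethylase, at 7.59 CPM against 1.89 to 2.92 CPM, less than 2-fold outside with a pseudocount of 5 CPM. INSIG2, which holds back sterol synthesis, was lower, at 15.9 CPM against 34.7 to 74.0 CPM, and fell under 2-fold with the offset, with library size alone, with the filter of 5 CPM and with a pseudocount of 5 CPM. Of 18 glycolytic genes, 1 was below and 2 above all bone marrow libraries. The shares over all genes were 15.5% and 19.1%, and 22.4% and 15.4% at a mean log2(CPM + 1) of at least 4. The median of the 18 glycolytic genes was 0.24. It was 0.12 without replicate 2, 0.09 without replicate 3 and 0.08 with the offset, and without replicate 1 there were 11 below. Sterol and fatty acid synthesis genes had a median of 0.29 over 31 (0.19 without replicate 4) and MHC class I genes 0.40 over 18 (0.19 without replicate 2). Other medians turned sign or came to 0 under some setting, so no direction is given for them. Interferon-stimulated genes had -0.06 over 27 (0 without replicate 4 and -0.34 with the offset) and cytosolic heat shock proteins 0.02 over 21 (-0.17 without replicate 4). Proteasome subunits had 0.14 over 31 (0.05 without replicate 2 and -0.09 with the offset) and secreted growth factors -0.22 over 22 (0.03 with the filter of 5 CPM).

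**Figure D5:**
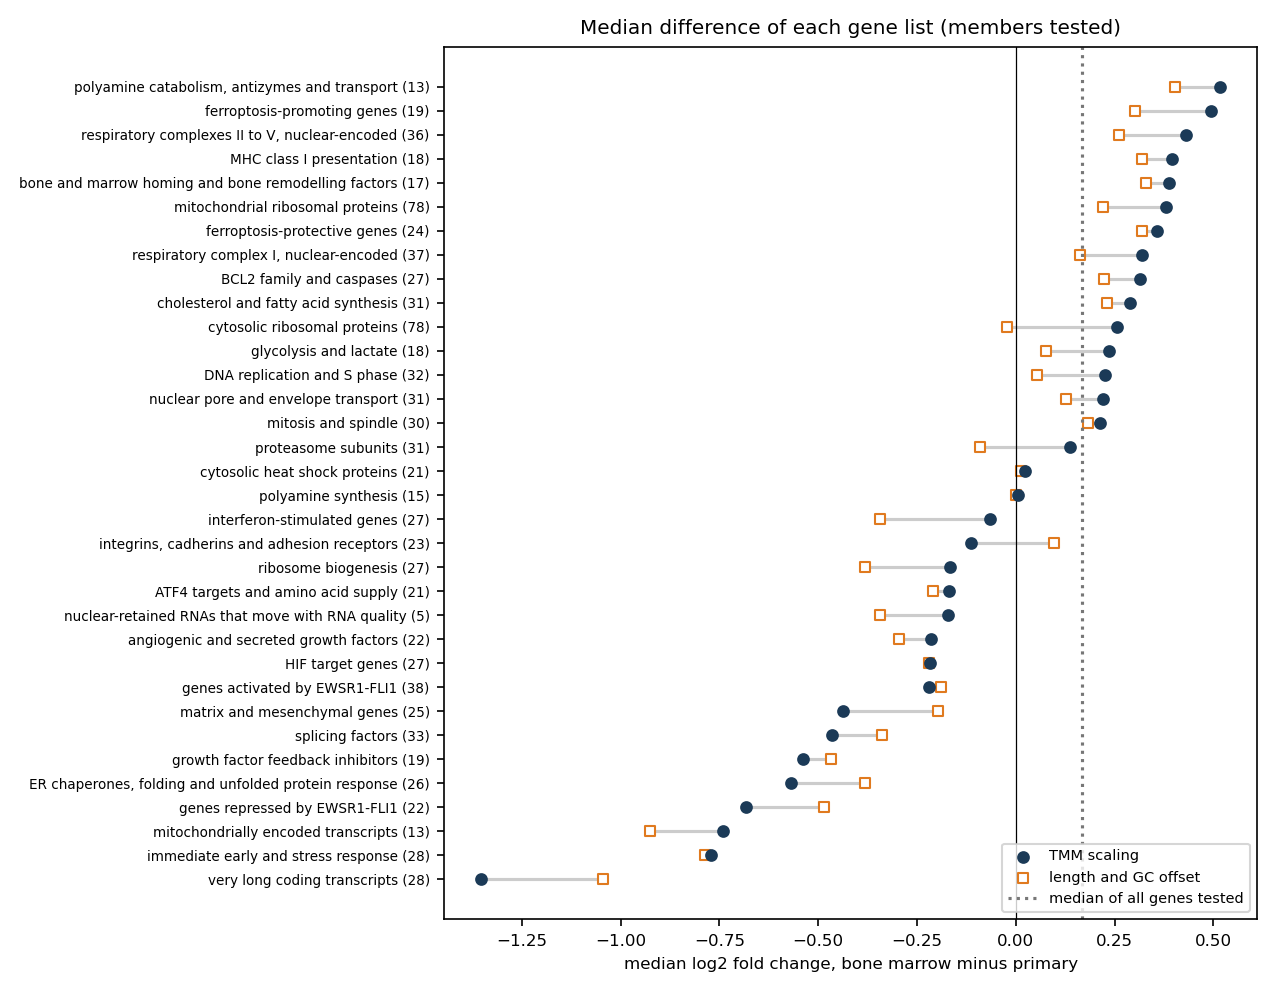
Median log2 fold change (bone marrow minus primary) of each gene list, with members tested in brackets. Filled circles use TMM scaling and open squares the length and GC offset, the dotted line is the median of all genes and negative values are higher in the primary tumour. Very long transcripts (-1.35) and early response genes (-0.77) lie furthest to the left.

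Cancer-testis genes on the X chromosome, grouped after their values were seen, were mostly lower in the primary tumour. Of 51 tested GAGE, PAGE, MAGE, XAGE, SSX, CT45 and NY-ESO genes, 41 were lower there, where 58% of all genes were, and 4 by the 2-fold rule, against 1.82% of all genes. None was higher by that rule. CTAG1A and CTAG1B, GAGE12C and GAGE12D, and SSX4 and SSX4B had the same values in every library, so the 41 include repeats. Some of the 41 rested on 0 CPM in the primary library against traces in bone marrow. MAGEA11 reached at most 0.0695 CPM there and SSX1 0.391 CPM. GAGE12J and GAGE2E, of 1 family, were both among the 4. GAGE2E was at 205 CPM in the primary library and at 592, 2401, 2848 and 1601 CPM in bone marrow. PAGE1 was at 28.9 CPM against 114, 269, 132 and 1348 CPM, and MAGEA2B at 0.844 CPM against 22.8, 28.0, 24.5 and 40.4 CPM. Bone marrow libraries differed widely among themselves, with MAGEA2 from 0.244 to 55.4 CPM and MAGEA6 from 0 to 114 CPM. GAGE2E was less than 2-fold outside the range with the offset. In lung libraries it ran from 4.08 to 1235 CPM. GAGE and MAGEA genes are near-identical copies among which the counting can split reads, so levels of single members are uncertain.

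Markers of other cells were found at differing levels in the 5 libraries. Those of fibroblasts, given above, summed to 315 CPM in the primary library and to 115 to 391 CPM in bone marrow. Leukocyte markers summed to 2.38 CPM over 16 genes in the primary library and to 1.83 to 11.2 CPM in bone marrow, with CSF1R at 0 in all 5. Red cell markers summed to 9.21 CPM over 13 genes in the primary library and to 17.6 to 112 CPM in bone marrow. HBA1, an alpha globin with a near-identical copy, made up most of this in bone marrow, at 3.53 CPM in the primary library and 52.1, 81.9, 11.5 and 42.0 CPM in bone marrow, while ALAS2 and GYPB were at 0 in all 5. Endothelial markers summed to 23.9 CPM and 23.8 to 38.8 CPM, and osteoblast and marrow stroma markers to 101 CPM and 111 to 231 CPM, with ESAM and BGLAP at 0 in all 5. Skin and muscle markers summed to 119 CPM and 29.7 to 166 CPM, with 4 of 10 at 0 throughout. Their part in the differences above was not tested. In bulk libraries such as these, fewer cells in a given state and less RNA per cell cannot be told apart.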

How the data were processed

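The authors deposited estimated counts per gene symbol for 9 libraries, unscaled. The submitters' processing notes list Trim Galore, Salmon and the build hg38. Transcript summing, annotation and strand setting are not given in the sources used here. Libraries were made by low-input template switching, per the labels' protocols. A second deposited table gives the percent of reads per species and the fraction of reads per counting category.

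Counts were rounded, vector rows (at most 0.0133% of a library) removed, and genes kept by filterByExpr over 3 groups. CPM are TMM-scaled. The 9 libraries entered 1 edgeR 4.0.16 quasi-likelihood fit (two-sided, Benjamini-Hochberg, R 4.3.3), with DESeq2 1.42.0 and limma 3.58.1 voom as alternatives. The edgeR fit and the range rule were tried on simulated data, and DESeq2 and limma voom were not. SE is the log2 fold change over the square root of F. All 10 pairs of the 5 libraries differed by more than counting noise, with chi-square over its degrees of freedom from 79.9 upwards. Replicate numbers give no pairing with the primary library. Lengths are those of the longest GENCODE 29 basic transcript, and promoters are from RefSeq.

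Members and the 41 lists were chosen with earlier results of these data known. Named genes were the 12 widest gaps and 3 smallest p in each direction at a mean log2(CPM + 1) of at least 4, up to 8 members per list, and 9 polyamine, ferroptosis and homing genes. CALR, GAGE2E, PAGE1, MAGEA2, MAGEA6, NASP and SMC3 were named after their values were seen.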

Additional observations from a re-analysis of the deposited data

Results flagged for a closer look

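In the 4 bone marrow libraries, single libraries stood apart for several measures, where the gap to the nearest other library, divided by the range of all 4, was above Dixon's 95% critical value. For ERRFI1 the ratio was 0.909, with replicate 4 low at 23.9 CPM beside 32.9 to 33.9 CPM, and all 4 far below the 594 CPM of the primary library. For HMOX1 it was 0.881, with replicate 2 high at 2.20 CPM. FOSL1, NID2, NT5E and SNRNP70 had a ratio of 1, because 3 of the 4 libraries were at 0. Chance alone gives such a gap in about 1 in 20 groups, and 147 measures were looked at.

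Among gene lists, the early response mean had a ratio of 0.84, with replicate 1 high at 4.64 beside 3.69 to 3.84. The glycolysis mean had 0.841, with replicate 1 low at 6.97 beside 7.62 to 7.74. The mean of secreted growth factors had 0.868, with replicate 2 high at 2.71 beside 2.64 to 2.65. The red cell marker mean had 0.908, with replicate 3 low at 1.44 beside 2.46 to 2.56. Unaligned reads had 0.833, with replicate 3 high at 20.32% beside 18.94 to 19.17%.

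For 2 genes all bone marrow libraries lay on one side of the primary library and all lung libraries on the other, and the log2 fold change of bone marrow against lung was -2.30 for MCL1 and 1.88 for TFRC (edgeR adjusted p 0.165 and 0.303). These sites share the same primary library, and that opposite placing was not tested.

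Vector rows outside the comparison held reads. The tdTomato reporter had estimated counts of 160 in the primary library and 35 to 208 in bone marrow, the puromycin resistance gene 1470 and 147 to 932, and the ampicillin resistance gene at most 4.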

How the results depend on the processing

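No paired analysis was possible because the labels give the primary library no replicate number and name no mouse for any library. The count of 884 genes outside the range by 2-fold (573 higher, 311 lower in the primary tumour) was 453 (188 and 265) with a filter of 5 CPM in 4 libraries, which reverses the balance from 64.8% to 41.5% higher, 311 (197 and 114) with a pseudocount of 5 CPM, 157 (89 and 68) with a 4-fold rule and 5909 (3267 and 2642) with no fold asked. Leaving out each bone marrow replicate in turn gave 1202 to 1539 genes (732 to 966 higher, 421 to 573 lower), most without replicate 1, as a range over fewer libraries is narrower. Without replicates 1 and 2 together, chosen after seeing the data for their lower level of long genes, it gave 2337 (1264 and 1073). Median-ratio size factors, no filter, library size alone (72% higher, with a median log2 fold change of all genes of 0.04 in place of 0.17) and the length and GC offset, also chosen then, stayed within 1.5 times. The edgeR count of 0 became 68 with DESeq2, which assigned an adjusted p to 13291 genes, and 0 with limma voom, with the 5 libraries alone and with every other setting.

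Of the genes named, those near 0 turned sign: SRM from 0.03 to -0.11 with library size alone, -0.040 with the stricter filter, -0.22 to 0.28 on leaving out single replicates (-0.22 and -0.16 without replicates 2 and 3), -0.13 without replicates 1 and 2, -0.21 with limma voom, -0.012 with the 5 libraries alone and -0.26 with the offset, ODC1 from -0.13 to 0.0057 without replicate 1 (-0.23 to 0.0057 over single replicates), and SMS and CALR to 0.087 and 0.18 without replicates 1 and 2. The cause was not tested. The biological coefficient of variation between libraries was 0.925 and the primary tumour has 1 library, which limits the calls on single genes. Genes such as SLC30A6 (11 counts in the primary library) also carry a wide counting error.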
